A study of Mus musculus with 6 samples.

Results

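Macrophages and their circulating precursors, monocytes, were followed through 36 genes that are widely used to mark these cells or that serve their main functions. The genes were chosen by name, and all 36 were found among the 18268 genes of the expression table. Colorectal tissue came from C57BL/6 mice given DSS for 7 days (dextran sulfate sodium, a sulfated sugar chain that damages the colon epithelium). All mice also received a drug by gavage for 6 days, either berberine (BBR), a plant alkaloid, in 3 mice or sulfasalazine (SASP), an established colitis drug that bacteria split to an aminosalicylate, in 3 mice. No genetic change is named for either group, and each sample was taken as 1 mouse. Both groups therefore had colitis and a drug, and healthy mice and colitis mice without a drug were not analysed here. Rectal samples are named for BBR and colon samples for SASP in the text of the study, while the labels say colorectal for both. Whether the sampled stretch of bowel differed is therefore not settled, and if it did, it cannot be told apart from the drug. The comparison asks how the macrophage and monocyte genes differed between the drugs.

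The gut wall holds many resident macrophages, which are renewed from blood monocytes. Monocytes enter through the chemokine receptor CCR2 and, as they mature, gain CX3CR1 and clearance receptors such as CD163 and the mannose receptor. During colitis more monocytes enter, and cells with Fc receptors for antibody and with inflammatory programmes become more frequent. In whole tissue, fewer cells of a type and less RNA per cell cannot be told apart.

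Of the 36 genes, 28 had at least 1 FPKM (a read level corrected for transcript length and sequencing depth) in at least 3 of the 6 mice and were tested. By limma on log2(FPKM + 1) with Benjamini-Hochberg adjustment over all tested genes, 5 of the 28 differed, and all 5 were lower in BBR mice. They were Fcgr4, Ms4a6d, Fcgr1, Ccr2 and Aif1, with mean levels 2.11-fold to 4.29-fold higher in SASP mice. These 5 are 17.9% of the tested members, beside 8.86% of all 12072 tested genes. Fcgr1 entered the test through its SASP mice alone, and the members were chosen with earlier results of these data known. With a minimum of 1 FPKM on the mean of all 6 mice, a rule chosen after seeing the data, 4 of 27 members passed (14.8%, beside 8.24%). By direction, 5.04% of all 12072 tested genes passed as lower and 3.82% as higher in BBR mice. The other 23 tested members did not pass the threshold of 0.05. Their names include the growth factor receptor Csf1r, the surface glycoprotein Adgre1 (F4/80) and Cd68, all of which had overlapping groups.

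The median difference (BBR minus SASP) of the 28 tested members was -0.13 on the log2(FPKM + 1) scale, beside 0.10 for all tested genes. By sign alone, 16 members were lower and 12 higher in BBR mice, and 39.2% of all tested genes were lower. In 11 of the 28 members (39.3%) the values of the groups did not overlap, beside 37.9% of all tested genes. Of these, 9 were lower in BBR mice (32.1% of the members, beside 16.6% of all tested genes) and 2 were higher (7.14%, beside 21.3%).

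Levels are compared between genes in FPKM, which is scaled to transcript length. Lgals3, Ctss, Ctsb, Apoe and Lyz2 had means over 50 FPKM and made up 93.4% of the summed level, and 29 members had means under 10 FPKM. In the order of mean levels, most neighbours overlapped over the 6 mice. A gap stood between Ctsb, at 310.73 FPKM or more, and Apoe, at 196.55 FPKM or less. Another stood between Lyz2, at 59.21 FPKM or more, and Mertk, at 22.08 FPKM or less. Several of the most abundant members are also made by other cells. Lgals3 (galectin-3) is known in gut epithelium and cathepsins in many cell types, and their share from macrophages was not measured.

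**Figure D1:**
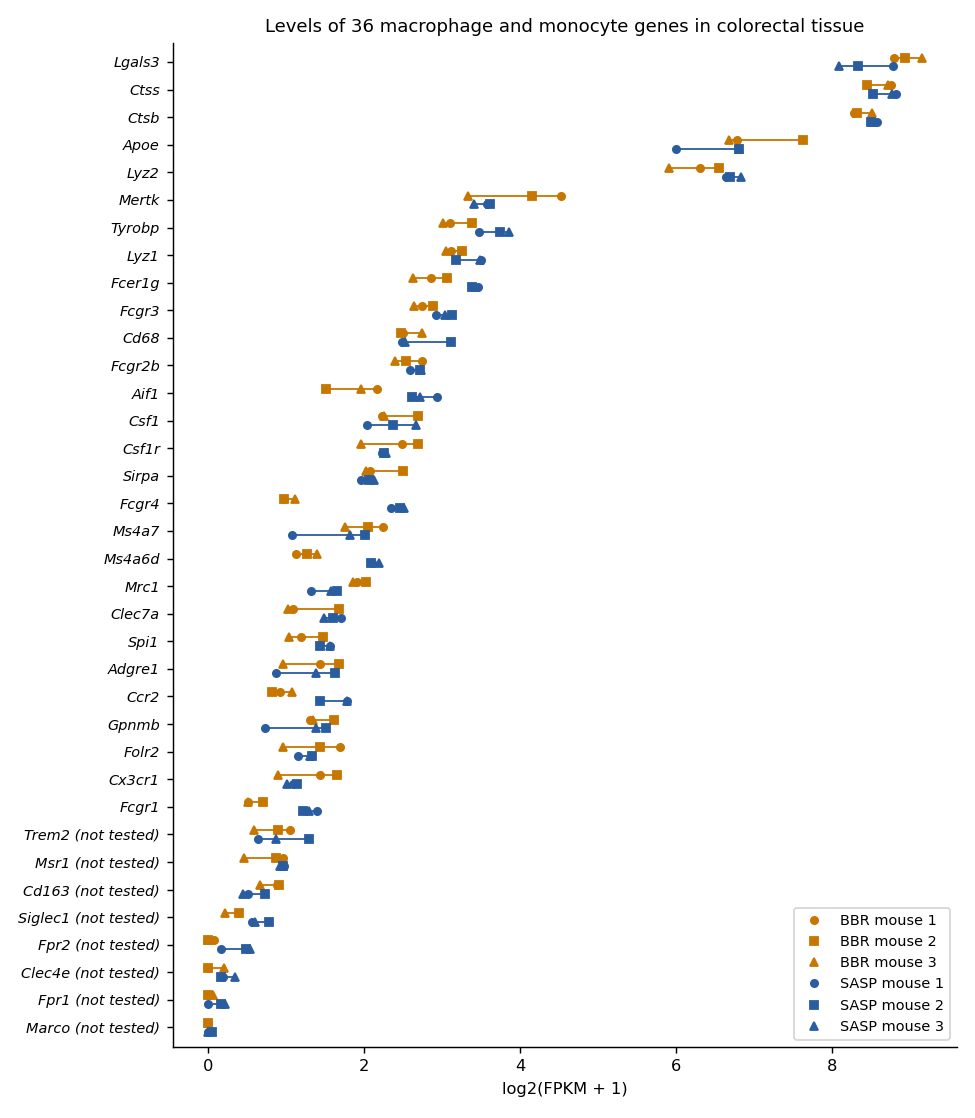
Level of each of the 36 genes in each mouse as log2(FPKM + 1), ordered by the mean over the 6 mice, with BBR mice above SASP mice in each row, a marker shape for each mouse and a line over the range of each group. Lgals3, Ctss and Ctsb lead, and Marco, listed at 0 in 5 mice, is at the bottom.

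Among the Fc receptors and their signalling adaptors, all 6 genes were lower in BBR mice by sign, with a median difference of -0.55, and 2 passed the threshold. Over all tested genes, 39.2% were lower by sign and 8.86% passed. Fcgr4 (NCBI Gene 246256), an activating receptor for IgG2 antibodies carried by monocytes, macrophages and neutrophils, differed most of all members. It stood at 0.97, 0.96 and 1.17 FPKM in BBR mice and at 4.07, 4.52 and 4.71 FPKM in SASP mice. Every SASP mouse was above every BBR mouse, and the means were 1.03 ± 0.12 and 4.43 ± 0.33 FPKM (SD, n = 3 each). The log2 difference was -1.42 (SE 0.13, 95% confidence interval -1.72 to -1.12; limma adjusted p = 0.00355), and 1.6% of the tested genes had a lower value. Fcgr1 (NCBI Gene 14129), the high-affinity IgG receptor CD64 that is used to tell gut macrophages from dendritic cells, stood at 0.42, 0.63 and 0.42 FPKM in BBR mice. In SASP mice it stood at 1.63, 1.32 and 1.44 FPKM. The groups did not overlap, and the log2 difference was -0.73 (SE 0.14; limma adjusted p = 0.0281). Fcgr1 entered the test through its SASP mice alone, since no BBR mouse reached 1 FPKM, so its call is given as a description.

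The promoters of these receptors are shown because PU.1 (the product of Spi1), the factor that sets the macrophage lineage, is known to act on Fc receptor genes such as Fcgr1. In the 250 bases before the start site, from the RefSeq annotation of GRCm38.p6, capitals mark GAGGAA, a PU.1 core, which is written TTCCTC on the other strand. The Fcgr1 window (chr3:96293970-96294219, minus strand) holds the PU.1 core with its first base 55 before the start. The Fcgr4 window (chr1:171018676-171018925, plus strand) holds the PU.1 core 22 before the start.
Fcgr1: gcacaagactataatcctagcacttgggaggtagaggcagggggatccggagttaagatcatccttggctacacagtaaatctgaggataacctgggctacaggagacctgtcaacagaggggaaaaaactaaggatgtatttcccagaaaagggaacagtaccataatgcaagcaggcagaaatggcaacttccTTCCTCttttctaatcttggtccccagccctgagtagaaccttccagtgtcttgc
Fcgr4: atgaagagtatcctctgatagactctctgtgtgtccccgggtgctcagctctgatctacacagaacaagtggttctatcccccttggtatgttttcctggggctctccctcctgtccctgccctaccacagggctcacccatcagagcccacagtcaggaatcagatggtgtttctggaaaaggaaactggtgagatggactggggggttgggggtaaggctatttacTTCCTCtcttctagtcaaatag

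RefSeq windows were matched for 27 of the 36 genes, and Ms4a6d is among those not matched. GAGGAA was found on either strand in 13 of the 27 (48.1%), beside 25.9% of 27025 genes with a window. A gene with several start sites was counted once if any window held the letters. A match is a description of the sequence and was not tested as a binding site. The Ccr2 window did not hold these letters.

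The remaining Fc receptor genes did not pass the threshold. Fcer1g, the signalling chain shared by activating Fc receptors, stood at 6.27, 7.34 and 5.19 FPKM in BBR mice and 10.02, 9.48 and 9.71 FPKM in SASP mice. Its groups did not overlap, and its log2 difference was -0.57 (SE 0.14; limma adjusted p = 0.0504). Tyrobp (DAP12), a related adaptor for TREM2 and other receptors, stood at 7.56, 9.41 and 7.09 FPKM against 10.07, 12.34 and 13.55 FPKM, and its groups did not overlap (adjusted p = 0.0751). Fcgr3, an activating receptor, stood at 5.67, 6.36 and 5.22 FPKM against 6.58, 7.70 and 7.18 FPKM, again with no overlap (adjusted p = 0.184). Fcgr2b, the inhibitory receptor of the family, overlapped between the drugs. It had 4.91 ± 0.70 FPKM in BBR mice and 5.39 ± 0.35 FPKM in SASP mice, and its difference of -0.12 had an interval of -0.44 to 0.20. In 50-base stretches of transcript, 12.8% of Fcgr3 is also found in Fcgr2b, so reads of these genes are partly divided by estimate, whereas Fcgr4, Fcgr1, Fcer1g and Tyrobp share none.

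The lineage genes divided into 2 that passed and 6 that did not, with a median difference of -0.05, beside 8.86% of all tested genes past the threshold. Ms4a6d (NCBI Gene 68774), a membrane protein of the MS4A family found on monocytes and macrophages, stood at 1.18, 1.41 and 1.62 FPKM in BBR mice and 3.28, 3.24 and 3.56 FPKM in SASP mice. The groups were well apart, and the log2 difference was -0.86 (SE 0.13; limma adjusted p = 0.0182). Aif1 (NCBI Gene 11629), which encodes the actin-binding protein IBA1, stood at 3.48, 1.85 and 2.88 FPKM against 6.62, 5.12 and 5.55 FPKM. Its lowest SASP mouse was above its highest BBR mouse, and the log2 difference was -0.87 (SE 0.20; limma adjusted p = 0.0426). The Aif1 window (GRCm38.p6 chr17:35176053-35176302, minus strand) is shown because it holds the PU.1 core 7 bases before the start, the closest to a start among the windows printed.
Aif1: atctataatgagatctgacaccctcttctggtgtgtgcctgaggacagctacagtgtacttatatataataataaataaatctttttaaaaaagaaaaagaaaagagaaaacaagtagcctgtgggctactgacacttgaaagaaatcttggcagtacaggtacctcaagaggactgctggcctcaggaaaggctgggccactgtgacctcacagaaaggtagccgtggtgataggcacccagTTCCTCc

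The defining receptors of the lineage did not pass the threshold. Csf1r, the receptor that macrophages need to survive, stood at 4.61, 5.43 and 2.88 FPKM in BBR mice and 3.68, 3.79 and 3.86 FPKM in SASP mice. The BBR mice lay on both sides of the SASP mice, and the difference of 0.12 had an interval of -0.35 to 0.59. Adgre1 stood at 1.69, 2.21 and 0.94 FPKM against 0.82, 2.10 and 1.60 FPKM, with a difference of 0.06 and an interval of -0.56 to 0.69. These intervals do not show that the levels were alike. Csf1, the ligand of Csf1r, had a difference of 0.04 (adjusted p = 0.918). Cd68, a lysosomal glycoprotein, had -0.14 (adjusted p = 0.654). Spi1 had -0.28 (adjusted p = 0.254), and Ms4a7, an MS4A gene of resident macrophages, had 0.38 (adjusted p = 0.352). The direction of Csf1, Csf1r, Adgre1 and Cd68 changed when single mice were left out, and that of the first 3 also with other scalings.

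Of the receptors for recruitment, Ccr2 (NCBI Gene 12772), the receptor through which monocytes are drawn from the blood by CCL2, passed the threshold. It stood at 0.90, 0.77 and 1.1 FPKM in BBR mice and 2.43, 1.71 and 2.44 FPKM in SASP mice. The groups did not overlap, and the log2 difference was -0.73 (SE 0.16; limma adjusted p = 0.0390). Cx3cr1, the fractalkine receptor of mature gut macrophages, stood at 1.69, 2.14 and 0.86 FPKM against 1.12, 1.2 and 1.02 FPKM, with overlapping groups and a difference of 0.25 (adjusted p = 0.440). The formyl peptide receptors Fpr1 and Fpr2, which sense bacterial peptides, were below the test's minimum. Fpr2 was listed at 0.05, 0 and 0 FPKM in BBR mice and at 0.12, 0.40 and 0.45 FPKM in SASP mice, which is about 0 to 9 reads per mouse. Fpr1 did not exceed 0.16 FPKM in any mouse, and at this depth no difference could be shown.

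Scavenger and clearance receptors take up dying cells, lipids and debris. Of the 8, 4 were tested, their median difference was 0.28, and none passed the threshold by limma. Mrc1, the mannose receptor CD206 of resident macrophages, was among the few members with higher values in BBR mice and groups apart. It stood at 2.77, 3.08 and 2.63 FPKM in BBR mice and 1.5, 2.14 and 1.98 FPKM in SASP mice, a log2 difference of 0.42 (SE 0.14; limma adjusted p = 0.102). Mertk, a receptor for the uptake of dying cells, stood at 22.08, 16.80 and 9.04 FPKM against 10.89, 11.27 and 9.58 FPKM, so that its difference of 0.47 rested on BBR mice 1 and 2 (adjusted p = 0.291). Folr2, a folate receptor, had a difference of 0.09, and Sirpa, which receives the signal of CD47 that restrains uptake, had 0.15. In 50-base stretches, 56.7% of Folr2 is shared with Gm10602, which leaves its level uncertain. The Mrc1 window (GRCm38.p6 chr2:14229164-14229413, plus strand) is shown because Mrc1 had higher values in BBR mice, where the genes of the other windows had lower ones. It holds the PU.1 core at 180, 167 and 35 bases before the start.
Mrc1: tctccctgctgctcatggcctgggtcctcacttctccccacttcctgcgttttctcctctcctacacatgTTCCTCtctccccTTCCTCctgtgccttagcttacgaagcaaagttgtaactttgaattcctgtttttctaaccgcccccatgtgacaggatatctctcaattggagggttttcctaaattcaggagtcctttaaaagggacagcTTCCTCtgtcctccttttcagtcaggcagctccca

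The other 4 scavenger receptors were under the minimum for the test. Cd163, the haemoglobin scavenger receptor, stood at 0.85, 0.87 and 0.59 FPKM in BBR mice and 0.42, 0.65 and 0.36 FPKM in SASP mice, with 1 SASP mouse among the BBR values. Siglec1 (CD169), a sialic acid lectin, stood at 0.30, 0.32 and 0.16 FPKM against 0.47, 0.72 and 0.52 FPKM, and its groups did not overlap. Of the genes under the minimum and above 0 in at least 1 mouse, 3.46% had groups apart and lower in BBR mice, as Siglec1 and Fpr2 did. Msr1, the class A scavenger receptor, lay between 0.38 and 0.96 FPKM over both groups. Marco, its relative, was listed at 0 in 5 mice and at 0.03 FPKM in SASP mouse 2.

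**Figure D2:**
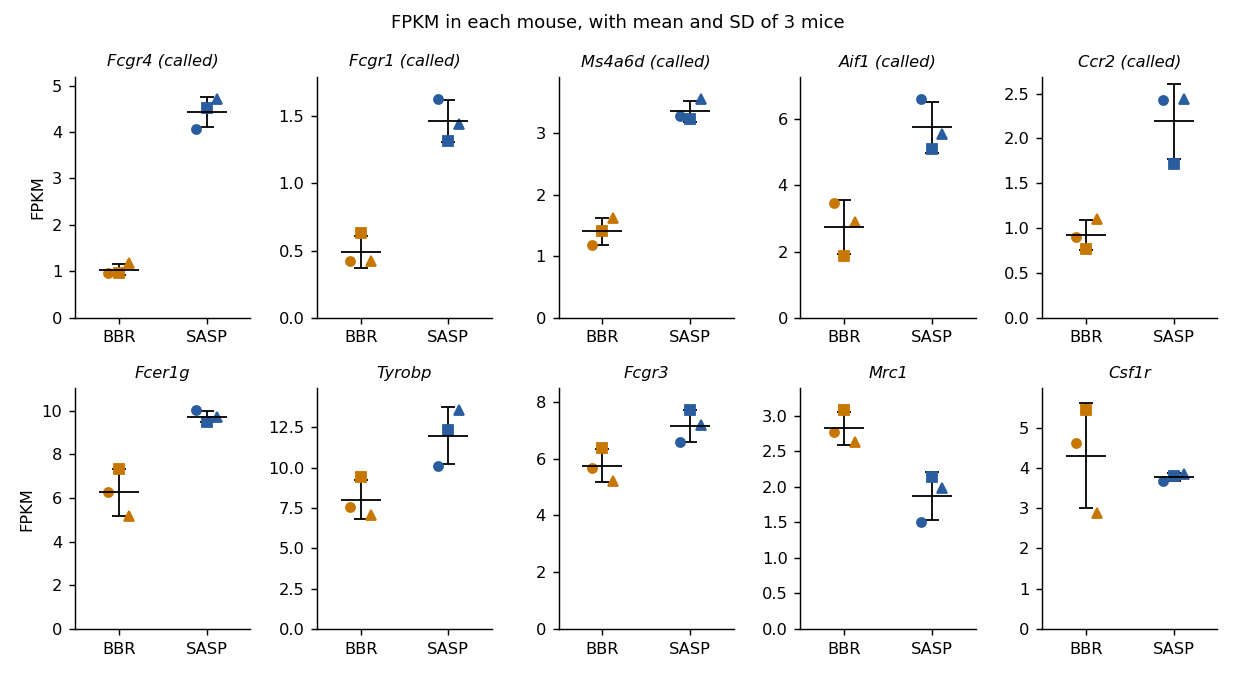
FPKM in each mouse (markers) for 10 of the genes, with a bar at the mean and error bars of 1 SD over the 3 mice of a group; genes past the adjusted threshold are titled as called. Fcgr4 lies between 0.96 and 1.17 FPKM in BBR mice and between 4.07 and 4.71 FPKM in SASP mice, and only the Csf1r panel shows overlapping groups. The 10 panels do not stand for the whole list. Of the 28 tested members, 17 overlapped and 11 (39.3%) did not, beside 37.9% of all tested genes.

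Lectins and genes of lipid handling and the lysosome held no gene past the threshold by limma. Lgals3, which binds galactosides and is secreted by macrophages and epithelium alike, stood at 442.37, 488.86 and 567.96 FPKM in BBR mice and 440.72, 322.30 and 270.49 FPKM in SASP mice. BBR mouse 1 and SASP mouse 1 were almost level, the other mice were farther apart, and the log2 difference was 0.56 (SE 0.20; adjusted p = 0.115). Clec7a (dectin-1), a receptor for fungal glucans, had -0.33 (adjusted p = 0.299). Clec4e (Mincle), a related lectin, was under the minimum, with at most 0.15 FPKM in BBR mice and 0.27 FPKM in SASP mice.

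Lyz2, the lysozyme gene of myeloid cells, stood at 78.42, 92.93 and 59.21 FPKM in BBR mice and 99.12, 102.37 and 113.10 FPKM in SASP mice. Every SASP mouse was above every BBR mouse, with a log2 difference of -0.46 (SE 0.17; adjusted p = 0.117). Lyz1, the lysozyme gene of Paneth cells, had 7.83 ± 0.63 and 9.5 ± 1.26 FPKM (SD, n = 3 each) with overlapping groups. Of its transcript, 16.1% in 50-base stretches is shared with Lyz2. Apoe, the lipid carrier apolipoprotein E, stood at 109.25, 196.55 and 101.73 FPKM against 62.77, 111.47 and 110.92 FPKM, a difference of 0.49 (adjusted p = 0.314). The cathepsins, which digest protein in lysosomes, had -0.06 for Ctss and -0.16 for Ctsb. Gpnmb, a glycoprotein of lipid-laden macrophages, had 0.21. Trem2, a lipid receptor, lay between 0.50 and 1.46 FPKM and was under the minimum.

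**Figure D3:**
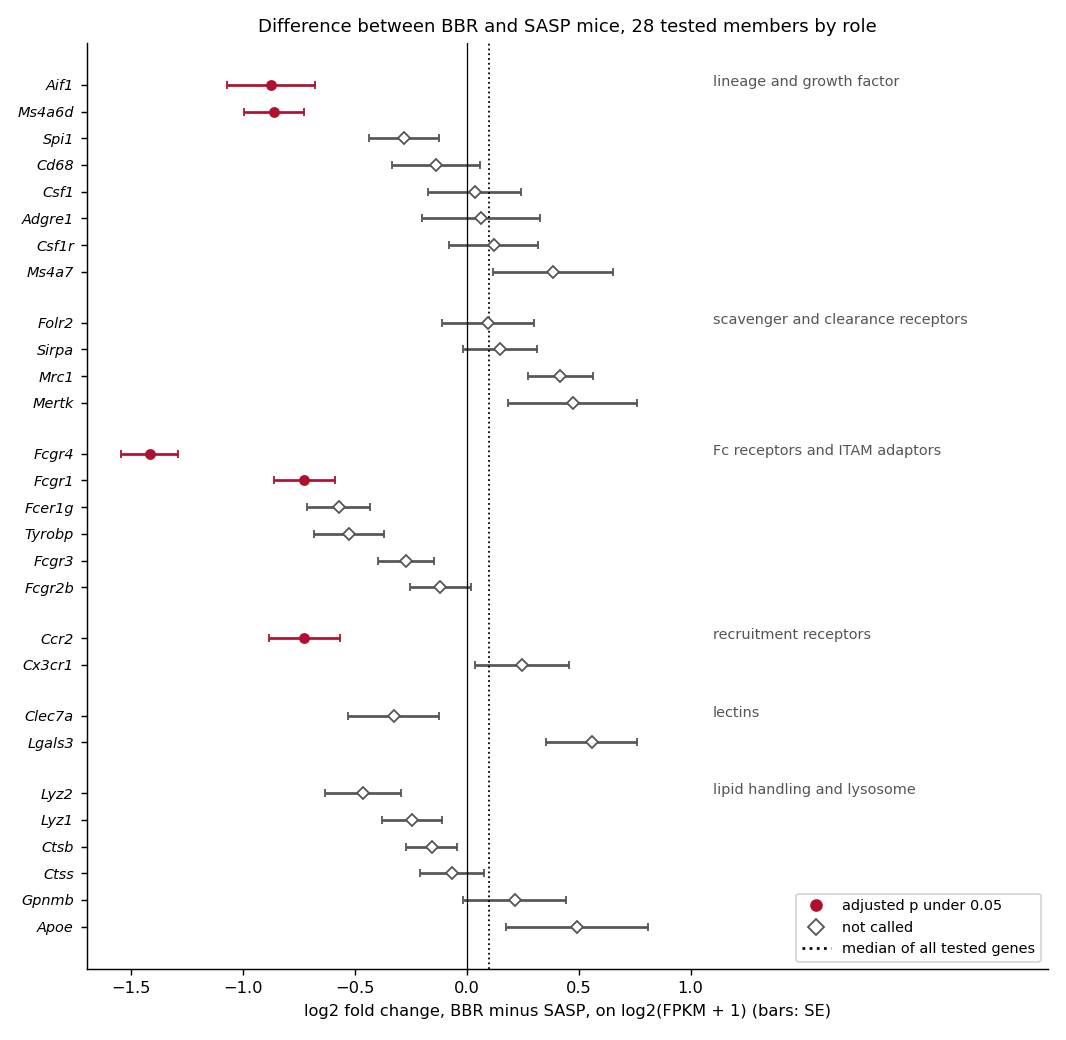
Log2 difference (BBR minus SASP, on log2(FPKM + 1)) of the 28 tested genes by role, with bars of 1 SE, a dotted line at the median of all tested genes and filled circles for genes past the adjusted threshold. Fcgr4 stands lowest at -1.42, and the other 4 filled circles lie between -0.87 and -0.73.

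Receptor pairs were also set against each other within a mouse, as differences of log2(FPKM + 1), for 3 ratios. The activating Fcgr4 relative to the inhibitory Fcgr2b stood at -1.76, -1.56 and -1.28 in BBR mice and at -0.24, -0.25 and -0.21 in SASP mice. The difference of -1.30 was larger than the spread within either group. Ccr2 relative to Cx3cr1 stood at -0.50, -0.83 and 0.18 in BBR mice and at 0.69, 0.30 and 0.77 in SASP mice, a difference of -0.97, and all 3 SASP mice were above all 3 BBR mice. Lyz2 relative to Lyz1 overlapped between the drugs, with a difference of -0.22. The two-sided exact permutation p was 0.1 for each of the first pair of ratios and 0.3 for the third. With 3 against 3 mice the smallest p it can give is 0.1.

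**Figure D4:**
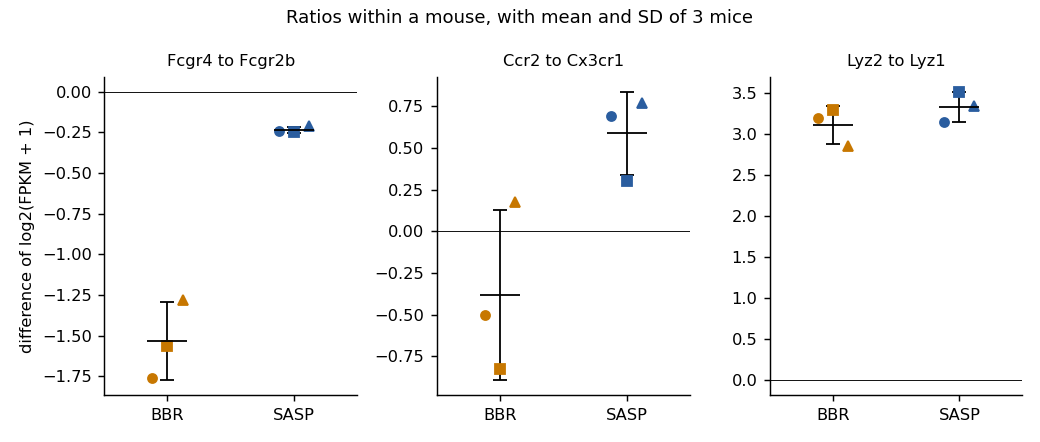
Difference of log2(FPKM + 1) between the genes of each pair in each mouse, with the mean and SD of the 3 mice of a group. The Fcgr4 to Fcgr2b ratio lies between -1.76 and -1.28 in BBR mice and between -0.25 and -0.21 in SASP mice, and the Lyz2 to Lyz1 ratio overlaps.

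Other genes of the same cells and of their signals were read from lists apart from the 36. Of 25 further macrophage genes tested, 2 passed the threshold, both lower in BBR mice, beside 8.86% of all tested genes past it. The other 23 did not pass. By sign 16 were lower and 9 higher, and the median difference was -0.21. Groups were apart and lower in 6 and apart and higher in 3, beside 16.6% and 21.3% of all tested genes. Irf8, a transcription factor that monocytes and dendritic cells need to develop, stood at 19.01, 17.82 and 17.74 FPKM in BBR mice and 89.49, 69.91 and 108.53 FPKM in SASP mice. Its log2 difference was -2.21 (limma adjusted p = 0.00171), larger than that of any of the 36 members, and it kept its call in every alternative. The other gene was Cd14, the co-receptor for bacterial lipopolysaccharide (-1.85; limma adjusted p = 0.00891). For Irf8 and Cd14, the share of the level that came from macrophages was not measured.

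Of 11 ligands of the members, 1 passed the threshold, beside 8.86% of all tested genes. Cd47, the ligand of Sirpa, stood at 12.65, 13.43 and 17.46 FPKM in BBR mice and 39.84, 31.66 and 37.07 FPKM in SASP mice, and fell by 1.27 on the log2 scale (limma adjusted p = 0.00891). Its call was lost without SASP mouse 3 (adjusted p = 0.0567). Of 7 monocyte genes tested, 1 passed as lower and 1 as higher in BBR mice, beside 5.04% and 3.82% of all tested genes. Chil3 (Ym1), a chitinase-like protein of inflammatory myeloid cells, stood at 0.07, 0 and 0.52 FPKM against 2.03, 1.85 and 4.0 FPKM (limma adjusted p = 0.0220). Like Fcgr1, it entered the test through its SASP mice alone, so its call is given as a description. Nr4a1, a transcription factor of patrolling monocytes that many tissue cells also induce, stood at 3.71, 17.32 and 14.32 FPKM against 1.78, 1.31 and 1.91 FPKM (limma adjusted p = 0.0472). Each of these calls was lost when some single mice were left out.

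Genes of other cell types were measured beside these, since whole tissue was sampled. The summed level of 13 pan-leukocyte genes was 36.1 to 61.4 FPKM in BBR mice and 56.5 to 112 FPKM in SASP mice, and 0 of 12 tested passed the threshold by limma. By sign 11 of the 12 were lower in BBR mice and 1 was higher, with a median difference of -0.65. Groups were apart and lower in 5 and apart and higher in 0, beside 16.6% and 21.3% of all tested genes. Ptprc (CD45), carried by all leukocytes, stood at 2.25, 3.32 and 1.84 FPKM against 6.80, 2.67 and 4.51 FPKM. B cell genes summed to 1.21 to 2.99 FPKM in BBR mice and 5.66 to 36.5 FPKM in SASP mice. Neutrophil genes, whose cells can also carry Fcgr4, summed to 193 to 573 FPKM against 541 to 569 FPKM, but Ly6g, named after its values were seen, made up most of the sum at 189.99 to 552.02 FPKM over the 6 mice. Of 6 tested neutrophil genes, 2 passed as lower in BBR mice, beside 5.04% of all tested genes. Ltf (lactoferrin), which gut epithelium can also make, stood at 0.48, 0.2 and 5.13 FPKM in BBR mice and 211.63, 21.72 and 85.87 FPKM in SASP mice (limma adjusted p = 0.0247). S100a8, a calcium-binding protein of neutrophils and inflammatory monocytes, stood at 0, 0 and 6.19 FPKM against 18.53, 20.64 and 23.14 FPKM (limma adjusted p = 0.0365). Both had groups well apart. T cell genes overlapped, at 5.68 to 9.45 FPKM and 4.72 to 11.5 FPKM. Fibroblast genes summed to 330 to 443 FPKM in BBR mice and 144 to 257 FPKM in SASP mice, and smooth muscle genes to 3027 to 7160 FPKM and 814 to 2471 FPKM. Epithelial genes summed to 8395 to 9190 FPKM in BBR mice and 8679 to 9942 FPKM in SASP mice, but single genes differed in both directions. Of the 7 tested endothelial genes 1 passed as higher in BBR mice, of 9 fibroblast genes 4, and of 11 epithelial genes 2 passed as higher and 1 as lower. Over all tested genes 3.82% passed as higher and 5.04% as lower. By sign, all 7 endothelial, 9 fibroblast and 12 smooth muscle genes were higher. Of these, 7, 8 and 8 had groups apart, beside 21.3% of all tested genes apart and higher. By sign 8 epithelial genes were higher and 3 lower. Of 2 tested B cell genes 1 passed as lower, Cd79b, at 0.33, 0.56 and 0.18 FPKM in BBR mice and 6.66, 1.42 and 2.95 FPKM in SASP mice, and it entered the test through its SASP mice alone. Among the few tested genes of dendritic cells (1), mast cells (3), T cells (3) and Paneth cells (1), and the 12 of smooth muscle, none passed the threshold by limma. Without BBR mouse 1 or SASP mouse 3 the calls in the neutrophil, B cell, fibroblast, endothelial and epithelial lists all fell to 0, and the first 4 lists also had 0 without BBR mouse 2 or SASP mouse 1. Without BBR mouse 3 the calls were 5, 1, 8, 3 and 6, in the same order. The part of these cell types in the results above was not tested.

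Relative to a score of the 12 tested pan-leukocyte genes (their mean log2(FPKM + 1), which was 0.60 lower in BBR mice), the picture differed. On this scale 0 of the 28 members lay apart and lower in BBR mice, beside 1.96% of all tested genes, and 11 (39.3%) lay apart and higher, beside 50.6%, or 52.6% of all tested genes apart in either direction. The median difference was 0.47 for the members and 0.70 for all tested genes. Fcgr4 still had the difference of -0.82, but its groups touched, with BBR mouse 3 at -0.72 and SASP mouse 1 at -0.73. SASP mouse 1, which had the highest pan-leukocyte sum, had the lowest Fcgr4 of its group but the highest Fcgr1 and Aif1. For Ms4a6d and Ccr2 it stood in the middle of its group. The pan-leukocyte score is not a score of macrophages alone. In SASP mice 1, 2 and 3 it was 3.07, 2.31 and 2.74, in the order of their B cell sums of 36.5, 5.66 and 18.1 FPKM. The part of leukocyte content, of any kind, in the values of the members was not tested.

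Libraries were of like estimated depth, about 16400000 to 18200000 reads, but the BBR mice differed among themselves. Over all tested genes, BBR mouse 3 had a Pearson correlation of 0.953 with BBR mouse 1 and 0.949 with BBR mouse 2. With SASP mice 1, 2 and 3 it had 0.92, 0.953 and 0.944. BBR mice 1 and 2 had 0.987 with each other, and pairs of SASP mice had 0.982 to 0.989. BBR mouse 3 was the lowest of the BBR mice in 17 of 28 tested members and the lowest of all 6 mice in 12, and the same held for 61.8% and 34.1% of all tested genes. BBR mouse 2 was the highest of the BBR mice in 16 members and of all 6 mice in 8, beside 47.9% and 34.0% of all tested genes. Low levels rest on few reads. The estimate per mouse was 20 to 103 reads for Fcgr4, 18 to 75 for Fcgr1, 28 to 85 for Ms4a6d, 27 to 103 for Aif1 and 72 to 246 for Ccr2. The limma p-values set the difference between the groups against the spread between mice within groups. That spread is drawn toward a trend over all tested genes. Nothing in the labels tells of separate cages or litters.

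Fcgr4 kept its call in every setting in which it was tested, with log2 differences of -2.0 to -1.38. Ms4a6d lost its call without BBR mouse 1 (or SASP mouse 1 or 3), with adjusted p of up to 0.0931. Fcgr1, Aif1 and Ccr2 kept theirs only without BBR mouse 3 among the fits that leave out 1 mouse, with adjusted p otherwise up to 0.117 for Fcgr1, 0.159 for Aif1 and 0.147 for Ccr2. Aif1 and Ccr2 also lost theirs when genes were not filtered by level. Without BBR mouse 3 the count of members past the threshold was 7, of which Mertk was higher in BBR mice (0.81). That is 25.0% of the members, below the 33.6% of all tested genes in the same fit. With a minimum set on the mean of all 6 mice (1 FPKM), a rule blind to the groups that was chosen after seeing the data, Fcgr1 was not tested and 4 of 27 members passed.

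**Figure D5:**
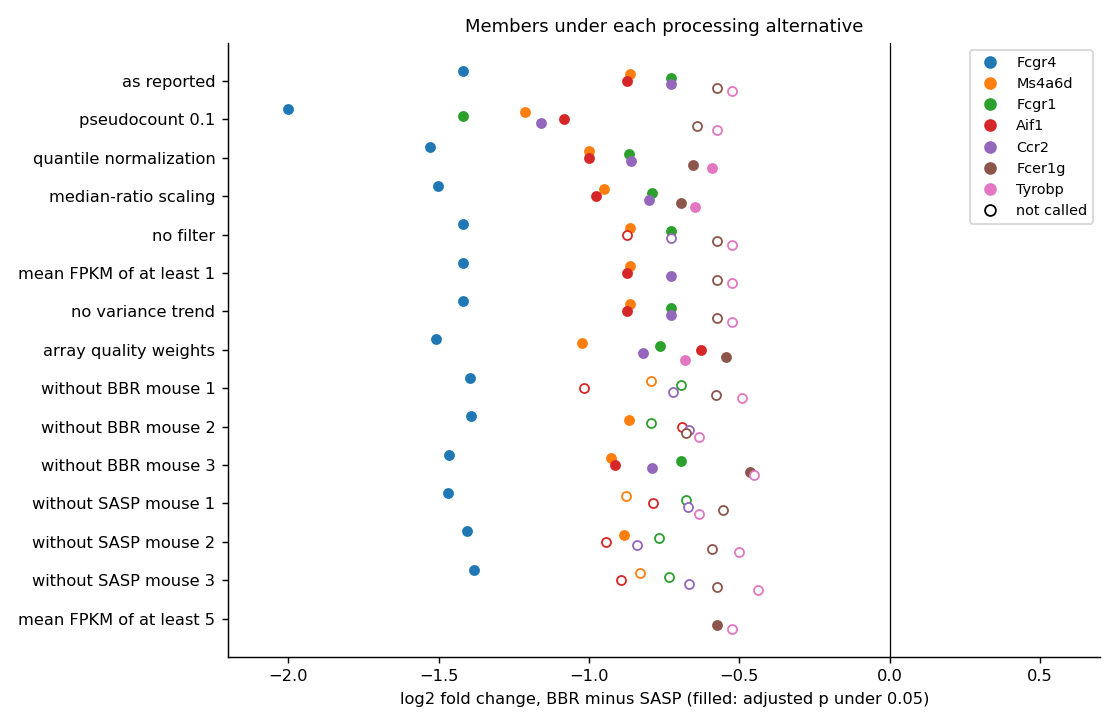
Log2 difference (BBR minus SASP) of the 5 genes past the threshold and of Fcer1g and Tyrobp under each way of processing, with filled circles for an adjusted p under 0.05. Fcgr4 is filled in each setting in which it appears, whereas Fcgr1, Aif1 and Ccr2 are open in 5 of the 6 fits that leave out 1 mouse.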

How the data were processed

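Colorectal RNA of 6 mice, 3 given BBR and 3 given SASP, was analysed, and groups were taken from the treatment labels. FPKM values were calculated by the authors with RSEM 1.2.12 after alignment with Bowtie2 2.2.5 to mm9, as the submitters' processing notes name them, and were deposited for each gene and sample. The annotation is not given in the sources used here. The methods describe ribosomal RNA depletion and short single-end reads, and the labels name a TruSeq kit. FPKM are not counts, and reads shared by similar genes are divided by estimate.

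Values were transformed as log2(FPKM + 1), which understates changes of low genes. Genes with at least 1 FPKM in at least 3 of 6 mice, 12072 in all, were compared with limma 3.58.1 (R 4.3.3, empirical Bayes with a mean-variance trend, all 6 mice, two-sided) with Benjamini-Hochberg adjustment and a threshold of 0.05. Counts of non-overlapping groups are given beside those of all tested genes. Ratios were compared with exact permutation tests (scipy 1.17.1). Read numbers were estimated from genes above 0 in a single mouse, with GENCODE M21 transcript lengths under 1500 bases. The typical value of these genes (31 to 56 per mouse) was taken as 1 read, so the numbers are approximate. Shared sequence was counted as 50-base words of those transcripts. Promoters came from RefSeq (GRCm38.p6), which is not the build of the expression values.

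The members and the lists were chosen with earlier results of these data known. All 36 members could be named, and of each other list at most the 3 genes with the smallest p among those past the threshold. Ptprc and Ly6g did not pass it and were named outside this rule. The fit was tested on simulated data. Other pseudocounts, scalings, filters, variance models and the omission of each mouse were tried.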

Additional observations from a re-analysis of the deposited data

How the results depend on the processing

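Of the 28 tested genes, 5 passed the threshold as reported, 8 after quantile normalization and 9 after scaling by median ratios, all lower in BBR mice. Those scalings added Fcer1g, Tyrobp and Fcgr3, and the second also Lyz2. The count was 3 with no filter, 1 with a mean of at least 5 FPKM (Fcer1g, since the 5 genes were not tested there), 20 with array quality weights (7 of them higher), 10 at an unadjusted p of 0.05, and 1 to 7 when 1 mouse was left out. As shares of the members beside all genes tested, these were 28.6% and 14.3% (quantile), 32.1% and 13.9% (median-ratio), 8.33% and 3.33% (no filter), 8.33% and 9.54% (mean of at least 5), 71.4% and 59.0% (weights), and 35.7% and 31.8% (unadjusted). It was 1 without BBR mouse 1, SASP mouse 1 or SASP mouse 3, 2 without BBR mouse 2 or SASP mouse 2, and 7 without BBR mouse 3 (3.57% to 25.0% of the members, beside 0.795% to 33.6% of all genes). Over all genes, 1069 passed as reported (461 higher, 608 lower), 1728 with quantile normalization, 1683 with median-ratio scaling (499 higher, 1184 lower), 608 with no filter, 7126 with array quality weights (4636 higher, 2490 lower), 3837 unadjusted and 96 to 4051 without 1 mouse. Median-ratio scaling moved the median of all genes by -0.12. Members with groups apart numbered 5 with a mean of at least 5 FPKM (41.7%, beside 38.3% of all genes) and 11 to 17 without 1 mouse, the most without BBR mouse 3 (60.7%, beside 65.1%). Relative to the leukocyte score they numbered 11 to 20 without 1 mouse, the most without SASP mouse 2 (71.4%, beside 86.5%). With a pseudocount of 0.1, the Fcgr4 to Fcgr2b ratio differed by -1.86 and the Ccr2 to Cx3cr1 ratio by -1.53.

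Genes that changed direction were all past no threshold as reported. With quantile normalization Csf1 had -0.078, Csf1r -0.0044, Adgre1 -0.10 and Folr2 -0.075, with median-ratio scaling Csf1 had -0.074 and Adgre1 -0.019, and with array quality weights Csf1 had -0.28 and Fcgr2b 0.00080. Without 1 mouse, Csf1 ranged from -0.12 to 0.19, Csf1r from -0.034 to 0.33, Adgre1 from -0.15 to 0.26, Cd68 from -0.25 to 0.065, Folr2 from -0.069 to 0.29, Sirpa from -0.0022 to 0.24, Gpnmb from -0.024 to 0.36 and Ctss from -0.16 to 0.030. The cause of these changes was not tested. No paired analysis was possible because the replicate numbers only follow accession order. Genes under about 2 FPKM rest on few reads, and 3 mice a group limit every call.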
